A study of Mus musculus with 8 samples.

Results

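Parthenogenetic embryonic stem (ES) cells of the mouse, which carry only maternal genomes, were compared with ES cells from fertilized embryos, which carry a genome from each parent. The comparison used both parthenogenetic arrays and all 3 fertilized arrays, 5 of the 8 arrays of the study; the other arrays measured androgenetic ES cells, which carry only paternal genomes. All lines were of the strain cross B6129F1 and were grown to passages 6 and 7 (parthenogenetic) or 6, 7 and 8 (fertilized). The labels give parthenogenetic cells as female; fertilized cells are labelled as both sexes, X and Y included. How many independent lines a group holds, the slide of each array and the feeder and medium are not stated there, so a p-value here reflects only the scatter between passages, which may be passages of the same line. Because RNA came from whole cultures, fewer cells of a type and less RNA per cell cannot be told apart.

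Parthenogenetic ES cells are derived from blastocysts of activated oocytes. In such cells, imprinted genes that are read only from the paternal allele have no active copy. Mouse ES cells are held in the naive state of the preimplantation epiblast by a network of transcription factors (Pou5f1, Sox2, Nanog, Esrrb, Klf4) that is sustained by LIF acting through STAT3 and opposed by FGF acting through ERK. They respond weakly to interferon and carry little class I MHC on their surface, and on differentiation they leave the naive state toward the primed epiblast or toward primitive endoderm, whose early factor is Gata6.

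Each array carried 25697 probes, of which 10623 to 11174 were detected with a detection p under 0.01. A probe was kept when it passed that limit on at least 2 of the 5 arrays. This left 11496 probes, 10744 of them with a gene name, for 7864 genes, and the 7590 autosomal genes are described here. Across kept probes, the parthenogenetic arrays correlated at r = 0.996 with each other, the fertilized arrays at 0.984 to 0.992, and arrays of the different groups at 0.957 to 0.963. The lowest correlation within a group was between the fertilized arrays of passages 7 and 8. The labelled cell type was borne out by Pou5f1, Sox2, Nanog, Zfp42, Sall4 and Lin28a, which were detected on all 5 arrays. Eif2s3y, a Y-linked gene, was detected on all 3 fertilized arrays and on neither parthenogenetic array, where it was at least 17-fold lower. Of 269 measured X-linked genes, 174 were called higher and 8 lower in parthenogenetic cells, with a median log2 difference of 0.63, so the groups also differed in their sex chromosomes.

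Of the 7590 autosomal genes, 2266 (29.9%) differed between the groups at an adjusted p under 0.05 in limma's moderated test. Among them, 1052 (13.9%) were higher and 1214 (16%) were lower in parthenogenetic cells, and the median log2 difference over all autosomal genes was -0.02. These shares are the background for every count of called list members below. A fitted difference of at least 2-fold was reached by 197 genes upward (2.60%) and by 171 downward (2.25%). The arrays of the groups did not overlap for 4523 genes (59.6%), which is the background for every statement below that arrays did not overlap. The number called rested on both parthenogenetic arrays. It was 815 without the passage 6 array, 853 without the passage 7 array and 1422 without the fertilized array of passage 6. The count of 2-fold genes moved less when an array was left out, from 357 to 389. All values below are normalized log2 signals or differences of them, parthenogenetic minus fertilized. Arrays are given in order of passage. Where no array of a group detected a gene, its fold is a lower bound against the signal at which detection began on those arrays.

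**Figure D1:**
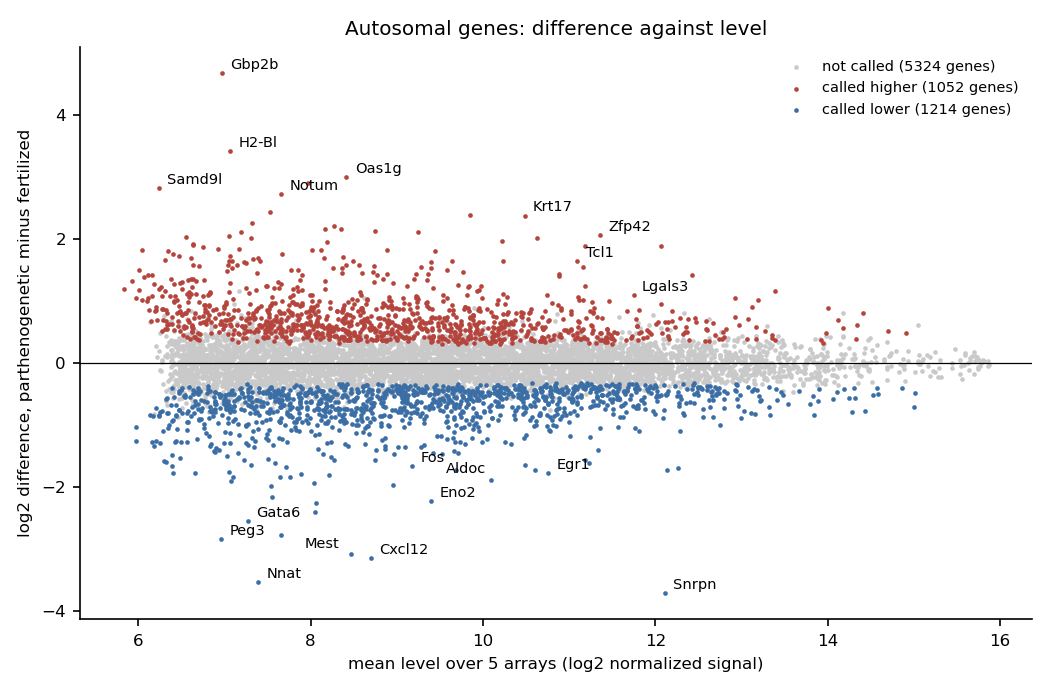
Each point is an autosomal gene. The horizontal axis is its mean normalized log2 signal over the 5 arrays and the vertical axis its log2 difference, parthenogenetic minus fertilized; red marks the 1052 genes called higher, blue the 1214 called lower. The largest differences were those of Gbp2b (4.68) and Snrpn (-3.71), and most called genes lay within 1 log2 unit of 0.

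The largest increases were led by genes of the interferon and antigen presentation systems. Gbp2b on chromosome 3, which encodes an interferon-induced guanylate-binding GTPase, had signals of 9.73 and 9.82 in parthenogenetic cells and of 5.01, 5.25 and 5.03 in fertilized cells, where no array detected it. It was at least 9.34-fold higher in parthenogenetic cells (limma adjusted p = 1.15e-05). H2-Bl, a non-classical class I MHC gene on chromosome 17, had 9.09 and 9.15 against 5.66, 5.85 and 5.58, was undetected in fertilized cells and was at least 5.92-fold higher (limma adjusted p = 4.90e-05). Oas1g, an oligoadenylate synthetase gene on chromosome 5 whose family senses double-stranded RNA, was detected in both groups. Its signals were 10.18 and 10.25 against 7.35, 7.17 and 7.13, a 7.99-fold increase (log2 3.00 ± 0.11 SE, n = 2 and 3, limma adjusted p = 4.90e-05). Samd9l, an interferon-inducible antiviral gene, was at least 2.61-fold higher and Il4i1, a secreted amino acid oxidase of antigen-presenting cells, at least 4.35-fold higher. These 5 genes were picked among genes whose arrays did not overlap between the groups, so the lack of overlap is not a separate result. Gbp2b, H2-Bl, Samd9l and Il4i1 were undetected in fertilized cells and passed the filter only through parthenogenetic cells.

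Other leading increases were not immune genes. Serpinb6c, a serine protease inhibitor, rose 5.23-fold, and Krt17, an epithelial keratin, 5.21-fold. E2f2, a cell cycle transcription factor, rose 4.64-fold, Car2, a carbonic anhydrase, 4.50-fold, and Igfbp7, a secreted IGF-binding protein, 4.48-fold. Slc47a1, an efflux transporter of organic cations, rose 4.41-fold. Msc and Notum were detected on 2 of 3 fertilized arrays, and Mras and Aoah on 1 of 3, so no fold is given for them. Their log2 differences were 2.91 for Msc, a repressor of the bHLH family, 2.73 for Notum, 2.44 for Mras, a small GTPase, and 2.12 for Aoah, an enzyme that inactivates endotoxin.

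Paternally expressed imprinted genes supplied 4 of the 15 largest decreases, and the remainder included a chemokine, an endoderm factor and glycolytic and muscle genes. Snrpn fell from 13.56, 13.69 and 13.54 to 9.90 and 9.87, which was 13.1-fold lower (limma adjusted p = 1.59e-05). Mest fell 8.49-fold. Nnat and Peg3 were undetected in parthenogenetic cells and at least 4.98-fold and 3.03-fold lower. Cxcl12 on chromosome 6, the chemokine that directs migration through the receptor Cxcr4, had 6.73 and 6.89 in parthenogenetic and 9.99, 10.07 and 9.79 in fertilized cells. It fell 8.82-fold (log2 -3.14 ± 0.13 SE, n = 2 and 3, limma adjusted p = 4.90e-05), and no kept named probe measured Cxcr4. The parthenogenetic signals of Cxcl12, and those of Mest (6.60 and 6.62), lay just above the detection limits of those arrays (6.47 and 6.52). Hs3st1, a heparan sulfate sulfotransferase, was at least 4.82-fold lower, and Insm1, a neuroendocrine zinc finger factor, at least 3.79-fold lower, both undetected in parthenogenetic cells. Ap5b1 and Tmem106a, also undetected there, were at least 3.58-fold and 2.54-fold lower. Eno2 fell 4.69-fold, Tmem145 4.77-fold, Dab2 3.93-fold, and Hrc, a calcium-binding protein of muscle, 3.81-fold. Myl3, a myosin light chain of heart and slow muscle, was detected on 1 of 2 parthenogenetic arrays and its log2 difference was -2.40.

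**Figure D2:**
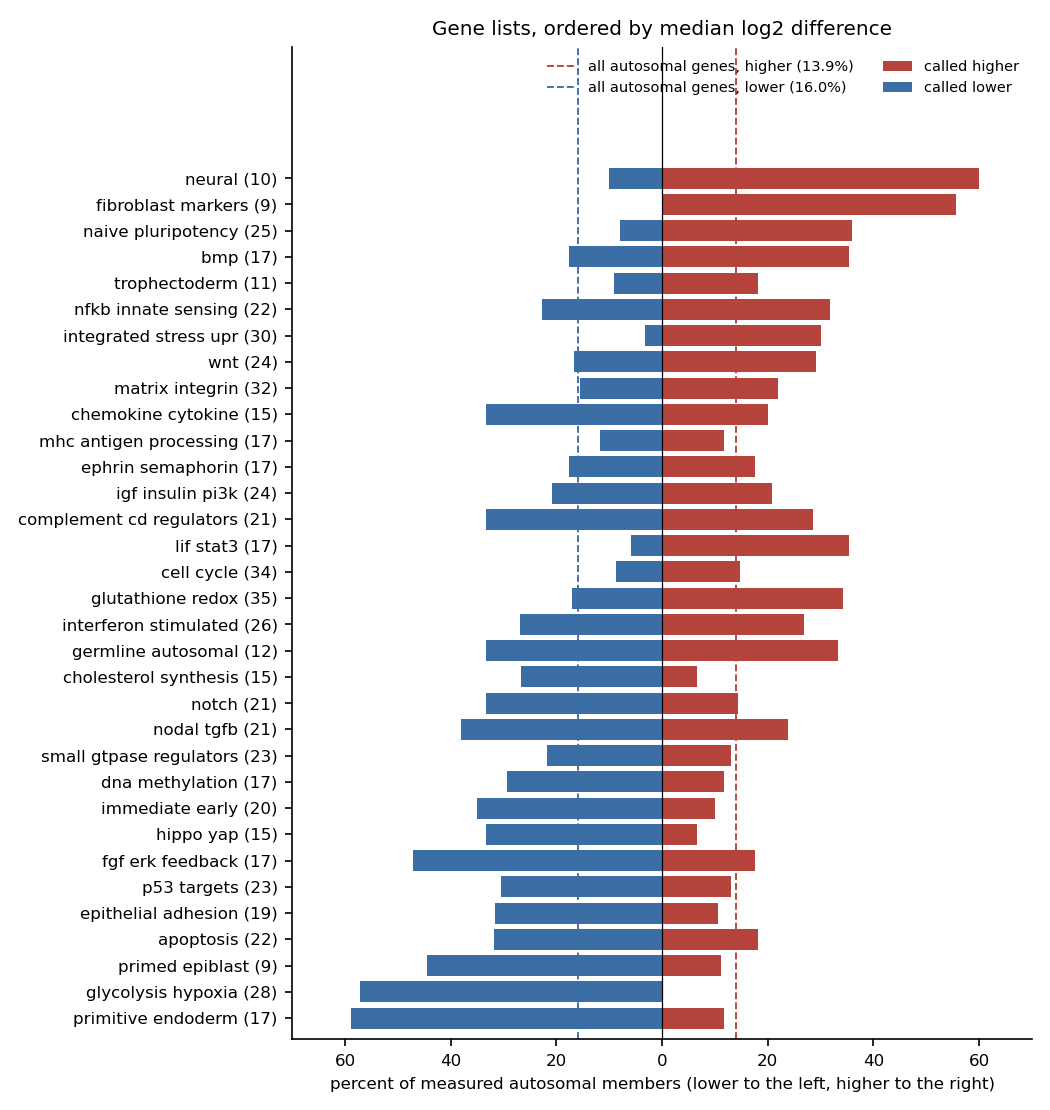
Bars give the percentage of each list's measured autosomal members called higher (right, red) or lower (left, blue) in parthenogenetic cells, with the number measured in brackets and lists of at least 9 members ordered by median log2 difference. Dashed lines mark all autosomal genes at 13.9% higher and 16% lower. Neural, fibroblast and naive pluripotency lists lie at the top, and primitive endoderm and glycolysis at the bottom.

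Naive pluripotency genes were more often higher than lower. Of 25 measured autosomal members of the list, 9 were higher and 2 lower, and their median log2 difference was 0.32 beside -0.02 for all autosomal genes. Zfp42 (Rex1), the reporter gene of the naive state on chromosome 8, had 12.54 and 12.66 in parthenogenetic and 10.56, 10.45 and 10.60 in fertilized cells. It was 4.17-fold higher (log2 2.06 ± 0.11 SE, n = 2 and 3, limma adjusted p = 0.000118), and the groups did not overlap. Tcl1, a coactivator of the kinase Akt, rose 3.14-fold, and Nr5a2, a nuclear receptor that activates Pou5f1, 2.71-fold. Tbx3 rose 2.36-fold, Klf4 2.33-fold and Klf5 2.07-fold, all transcription factors of the naive network.

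The core factors themselves differed less. Pou5f1 had 13.49 and 13.52 against 13.01, 13.21 and 13.34 (log2 0.32, limma adjusted p = 0.101). Sox2 had 11.56 and 11.72 against 11.42, 11.18 and 11.35 (log2 0.32, limma adjusted p = 0.0855), and Esrrb differed by 0.25 (limma adjusted p = 0.11). These 3 genes did not pass the test, although their arrays did not overlap, and all passed it when the androgenetic arrays were added to the fit. Nanog was called 1.65-fold higher (limma adjusted p = 0.0181), a call lost when either parthenogenetic array or the fertilized array of passage 6 was left out. The decreases on the list were Utf1 (log2 -0.61), a chromatin-associated factor of ES cells, and Lin28a (log2 -0.47), which blocks maturation of let-7. The list held 6 increases and no decrease without either parthenogenetic array, and 13 increases and 3 decreases without the fertilized array of passage 8.

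Genes of the primed epiblast tended the other way. Of 9 measured members, 4 were lower and 1 was higher, with a median of -0.31. Otx2, the homeobox factor that drives the exit from the naive state, fell from 11.85, 11.67 and 12.15 to 10.54 and 10.45. This was a 2.63-fold decrease (log2 -1.40 ± 0.15 SE, n = 2 and 3, limma adjusted p = 0.00137) without overlap of the arrays. Pou3f1 (Oct6) was 1.59-fold lower, Cldn6 1.49-fold lower and the de novo methyltransferase Dnmt3b 1.33-fold lower. Nes, an intermediate filament of neural progenitors, was 1.67-fold higher. The calls of Pou3f1, Cldn6 and Dnmt3b were lost without either parthenogenetic array and that of Nes without the passage 7 array, whereas that of Otx2 was kept in both fits. Genes of the 2-cell-like state, a rare state of ES cultures marked by Zscan4, were called higher in the 4 measured. Tcstv3 and Tcstv1 were undetected in fertilized cells and so passed the filter only through the group in which they were high, and only 1 of the 4 genes was detected on all 5 arrays. Zscan4c rose 2.03-fold (limma adjusted p = 0.0029), Tcstv3 was at least 2.04-fold and Tcstv1 at least 1.37-fold higher, and Gm428, detected on 2 of 3 fertilized arrays, differed by 1.29.

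Primitive endoderm genes were mostly lower. Of 17 measured autosomal members, 10 were lower and 2 higher, with a median log2 difference of -0.72, or -0.44 with undetected groups at their bound. Of the 10 members detected on all 5 arrays, 7 were lower and 2 higher. Rhox5, an X-linked member of the list left out of these counts, was 7.45-fold higher. Gata6 had 8.31, 8.31 and 8.25 in fertilized cells and 5.80 and 5.68 in parthenogenetic cells, where neither array detected it. It was at least 3.47-fold lower (limma adjusted p = 4.90e-05). Dab2, an endocytic adaptor of the endoderm, had 7.69 and 7.85 against 9.60, 9.78 and 9.86. Amn, which anchors the endocytic receptor cubilin, fell 2.36-fold, and Srgn, a proteoglycan core protein, was at least 1.36-fold lower. Basement membrane genes of the list went both ways. Lama1 fell 1.99-fold, Col4a2 1.80-fold and Col4a1 1.64-fold, whereas Nid1 rose 1.92-fold and Lamc1 by 0.41 on the log2 scale. Gata4, Sox17, Foxa2 and Pdgfra, which define the lineage, had no kept named probe. The summed linear signal of the 17 members was 24075 and 25363 in parthenogenetic and 31358 to 34118 in fertilized cells. The list held 7 decreases without the parthenogenetic array of passage 6 and 9 or 10 when any other array was left out.

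Several neural and fibroblast markers were higher in parthenogenetic cells. Of 10 measured autosomal neural genes, 6 were higher and 1 lower, with a median of 0.74. Mapt (tau), a microtubule-binding protein of axons, had 10.44 and 10.59 against 8.52, 8.60 and 8.10 and rose 4.32-fold (limma adjusted p = 0.000413). Map2, its dendritic counterpart, rose 3.55-fold, Stmn2, a regulator of microtubules in growth cones, 2.66-fold, and Crmp1, a mediator of semaphorin signals, fell 1.67-fold. Among 9 measured fibroblast genes 5 were higher and none lower, with a median of 0.42. Of the 8 detected on all 5 arrays, 4 were higher. With no background correction and in the deposited log2 table, among other settings, 1 member was called lower. Lox, called higher, was undetected in fertilized cells, and its bound gave no increase. The call of Tagln was lost in 8 of 17 alternatives. Col5a1, a fibrillar collagen, rose 2.93-fold and Vim 2.08-fold, and Acta2 was called 1.62-fold higher (lost without either parthenogenetic array). The summed signal of the fibroblast genes was 27963 and 29605 in parthenogenetic and 16878 to 20243 in fertilized cells, mostly from Acta2, and 14 of the 24 listed markers, among them Col1a1, Col3a1 and Postn, had no kept named probe. Without either parthenogenetic array 3 of the 9 genes were called higher. Levels of these markers moved with the groups, and their part in the increases described above and below was not tested.

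Markers of other cell types were mixed. Trophectoderm genes were called higher in 2 and lower in 1 of 11 measured members, or 27.3% called beside 29.9% of all autosomal genes. Their summed signal was 26227 and 26182 in parthenogenetic and 21277 to 23699 in fertilized cells. Krt8 differed by 0.06, Ets2 rose 1.80-fold, and no kept named probe measured Cdx2. Of 4 measured autosomal leukocyte genes only Laptm5, a lysosomal protein of blood cells, was called, 2.03-fold higher at 13.77 and 13.85 against 12.81, 12.79 and 12.76. The summed signal of the 4 genes, mostly from Laptm5, was 14565 and 15270 in parthenogenetic and 7489.3 to 7780.6 in fertilized cells. Ptprc, Cd68, Itgam and Csf1r, which are leukocyte markers, had no kept named probe, and Cd3e was detected on 1 of 2 parthenogenetic and 3 of 3 fertilized arrays. Of 12 germline genes 4 were higher and 4 lower, which became 3 and 1 without the parthenogenetic array of passage 6 and 4 and 2 without that of passage 7. Smc1b, a meiotic cohesin subunit, rose 2.85-fold, and Hspa2, a testis heat shock protein, fell 2.27-fold. Of 19 epithelial adhesion genes, 6 were lower and 2 higher. The epithelial list held 2 decreases without the parthenogenetic array of passage 6 and 1 without that of passage 7. Ocln, a tight junction protein, was at least 1.20-fold lower, and Zeb1, a repressor of epithelial genes, rose 2.38-fold from 7.01, 6.94 and 7.01 to 8.22 and 8.25.

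**Figure D3:**
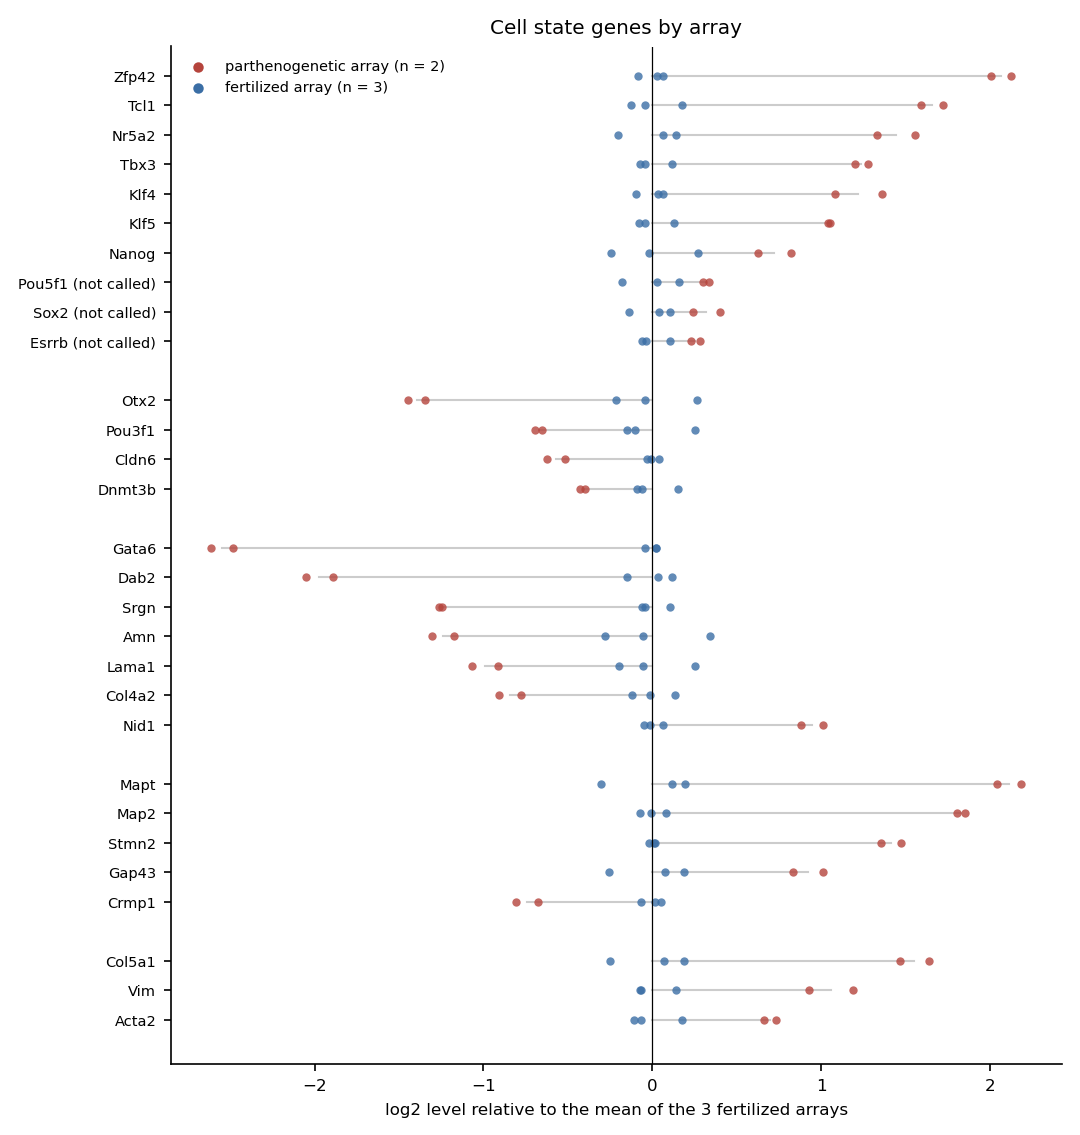
Each row is a gene, and each point an array's log2 level relative to the mean of the 3 fertilized arrays (red, the 2 parthenogenetic arrays; blue, the 3 fertilized arrays). Blocks from the top hold naive, primed epiblast, primitive endoderm, neural and fibroblast genes; the mean of the parthenogenetic points lies at 2.06 for Zfp42, at -2.55 for Gata6, at 0.32 for Pou5f1 and Sox2 and at 0.25 for Esrrb.

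The interferon-stimulated genes did not move together. Of 26 measured members of a list that does not hold Gbp2b or Oas1g, 7 were higher and 7 lower, and the median log2 difference was -0.04. Increases were found in Samd9l, in Ifngr2, a subunit of the interferon gamma receptor (3.13-fold), in Eif2ak2, the double-stranded RNA-activated kinase PKR (log2 0.85), and in Gbp3 (log2 0.81), Adar (log2 0.49), Parp14 (log2 0.47) and Gbp2 (log2 0.42). Ifngr2 had 10.77 and 10.48 against 8.94, 9.44 and 8.57, and these did not overlap. Decreases were found in Oasl2, an oligoadenylate synthetase-like gene (2.77-fold, from 9.34, 9.56 and 9.78 to 8.16 and 8.02), and in Ifi30, a lysosomal thiol reductase of antigen processing (2.06-fold). The immunity-related GTPase genes Irgm2 and Igtp fell 1.93-fold and 1.83-fold, and Ifitm3, which restricts viral entry, fell 1.62-fold, a call lost without either parthenogenetic array. Irf1, a transcription factor of the response, had 12.27 and 12.39 against 12.30, 12.29 and 12.29. Isg15 was undetected in parthenogenetic cells and differed by -0.35 (limma adjusted p = 0.114). Without the parthenogenetic array of passage 6 the list held 4 increases and 4 decreases, and without that of passage 7 it held 3 and 5. Members of the Gbp, Oas and Irgm families resemble one another in sequence, and whether a probe also read a relative was not tested.

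Promoters of 4 of these genes are shown because they moved in opposite directions while each holds the core of the interferon-stimulated response element. RefSeq windows of 300 bases, from 250 before to 50 after the transcription start (build GRCm38.p6), were searched on both strands for GAAA followed, after any 2 bases, by a second GAAA (TTTC and TTTC on the other strand). Overlapping matches were allowed, and matches are in capitals. Gbp2b (chr3:142594597-142594896, plus strand) and Oas1g (chr5:120887564-120887863, minus strand) were higher, and Igtp (chr11:58199306-58199605, plus strand) and Irgm2 (chr11:58214727-58215026, plus strand) lower in parthenogenetic cells.
Gbp2b: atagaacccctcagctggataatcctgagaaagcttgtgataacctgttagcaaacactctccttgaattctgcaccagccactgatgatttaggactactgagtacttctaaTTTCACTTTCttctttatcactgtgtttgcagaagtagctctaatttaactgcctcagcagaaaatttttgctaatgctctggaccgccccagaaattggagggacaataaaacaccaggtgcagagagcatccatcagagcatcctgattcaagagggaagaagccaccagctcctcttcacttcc
Oas1g: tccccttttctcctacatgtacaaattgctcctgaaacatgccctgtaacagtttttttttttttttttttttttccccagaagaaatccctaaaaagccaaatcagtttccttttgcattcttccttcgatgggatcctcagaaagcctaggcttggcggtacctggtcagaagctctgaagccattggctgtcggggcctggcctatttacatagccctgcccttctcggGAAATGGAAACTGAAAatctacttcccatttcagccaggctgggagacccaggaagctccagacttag
Igtp: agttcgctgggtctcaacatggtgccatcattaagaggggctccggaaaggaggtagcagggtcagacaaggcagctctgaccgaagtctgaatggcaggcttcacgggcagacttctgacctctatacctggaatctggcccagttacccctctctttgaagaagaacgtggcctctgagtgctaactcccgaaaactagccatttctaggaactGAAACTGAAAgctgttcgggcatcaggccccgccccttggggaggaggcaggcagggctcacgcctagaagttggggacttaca
Irgm2: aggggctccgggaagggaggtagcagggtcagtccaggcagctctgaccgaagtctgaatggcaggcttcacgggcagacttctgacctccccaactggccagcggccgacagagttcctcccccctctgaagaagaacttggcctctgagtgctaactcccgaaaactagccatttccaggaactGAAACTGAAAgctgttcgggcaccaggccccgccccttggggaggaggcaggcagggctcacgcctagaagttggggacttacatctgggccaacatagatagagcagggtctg
Relative to the transcription start, the match of Gbp2b begins at -137, that of Igtp at -34 and that of Irgm2 at -64. Oas1g holds 2 overlapping matches, which begin at -18 and -12. Of all 32851 windows, 1131 (3.44%) held the motif. It was found in 3 of 9 windows of the list's higher genes (Eif2ak2, Gbp2 and Gbp3), in 4 of 8 windows of the lower genes (Bst2, Ifitm3, Igtp and Irgm2) and in 6 of 12 windows of the genes not called. A match is a description of these letters and not a site shown to be used.

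Of 17 measured MHC and antigen processing genes, 2 were higher and 2 lower, or 23.5% called beside 29.9% of all autosomal genes. Beside H2-Bl, H2-T23, a class I gene recognised by natural killer cell receptors, was called 1.52-fold higher, a call lost without either parthenogenetic array. H2-DMa, which loads peptides onto class II molecules, fell 1.87-fold (limma adjusted p = 0.00239). B2m, the class I light chain, had 10.86 and 10.82 against 10.67, 10.63 and 10.47 (log2 0.25, limma adjusted p = 0.12), and H2-K1, H2-D1 and Tap1 had no kept named probe. Of 22 genes of NF-kappaB and innate sensing, 7 were higher and 5 lower. Of the 17 detected on all 5 arrays, 4 were higher and 4 lower. Tlr2, a receptor for bacterial lipoproteins, had 8.02 and 8.08 against 6.33, 6.40 and 6.44, was undetected in fertilized cells and was at least 2.81-fold higher (limma adjusted p = 0.000179). Aim2, a sensor of cytosolic DNA, and Nlrp4c were detected on both parthenogenetic arrays and on 1 of 3 fertilized arrays, with log2 differences of 1.54 and 1.49. The list held 4 increases and 3 decreases without either parthenogenetic array. Nfkbiz, an inducible nuclear member of the inhibitor family of NF-kappaB, fell 1.76-fold, and Aire, which drives expression of tissue antigens in the thymus, fell from 11.15, 11.26 and 11.05 to 10.40 and 10.39.

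Among 15 measured autosomal chemokine and cytokine genes 3 were higher and 5 lower. The 3 higher genes (Il17d, Ltb and Il17re) were undetected on at least 2 of the 3 fertilized arrays and passed the filter through parthenogenetic cells. Of the 10 genes detected on all 5 arrays none was higher and 5 were lower (limma). Next to Cxcl12, Ccl25, a chemokine that guides thymocytes and gut lymphocytes, fell 1.94-fold, although its second kept probe differed by -0.26 and was not called. Il17d and Ltb were undetected in fertilized cells and at least 1.38-fold and 1.31-fold higher. Of 21 genes of complement and of the cell surface seen by immune cells, 6 were higher and 7 lower. Without the parthenogenetic array of passage 6 these were 3 and 3, and without that of passage 7 they were 3 and 5. Pvr, a ligand of natural killer and T cell receptors, fell 2.75-fold from 10.14, 10.03 and 10.14 to 8.56 and 8.73, and C2, a complement protease, fell 2.32-fold. Cd274 (PD-L1), which restrains T cells, was undetected in parthenogenetic cells and at least 1.38-fold lower. The galectin genes Lgals3 and Lgals9 rose 2.14-fold and 2.10-fold, and Masp2, a protease of the lectin pathway of complement, rose 2.11-fold. Lgals3 had 12.44 and 12.38 in parthenogenetic and 11.25 to 11.40 in fertilized cells. Cd9, a tetraspanin of ES cells, differed by 0.04.

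**Figure D4:**
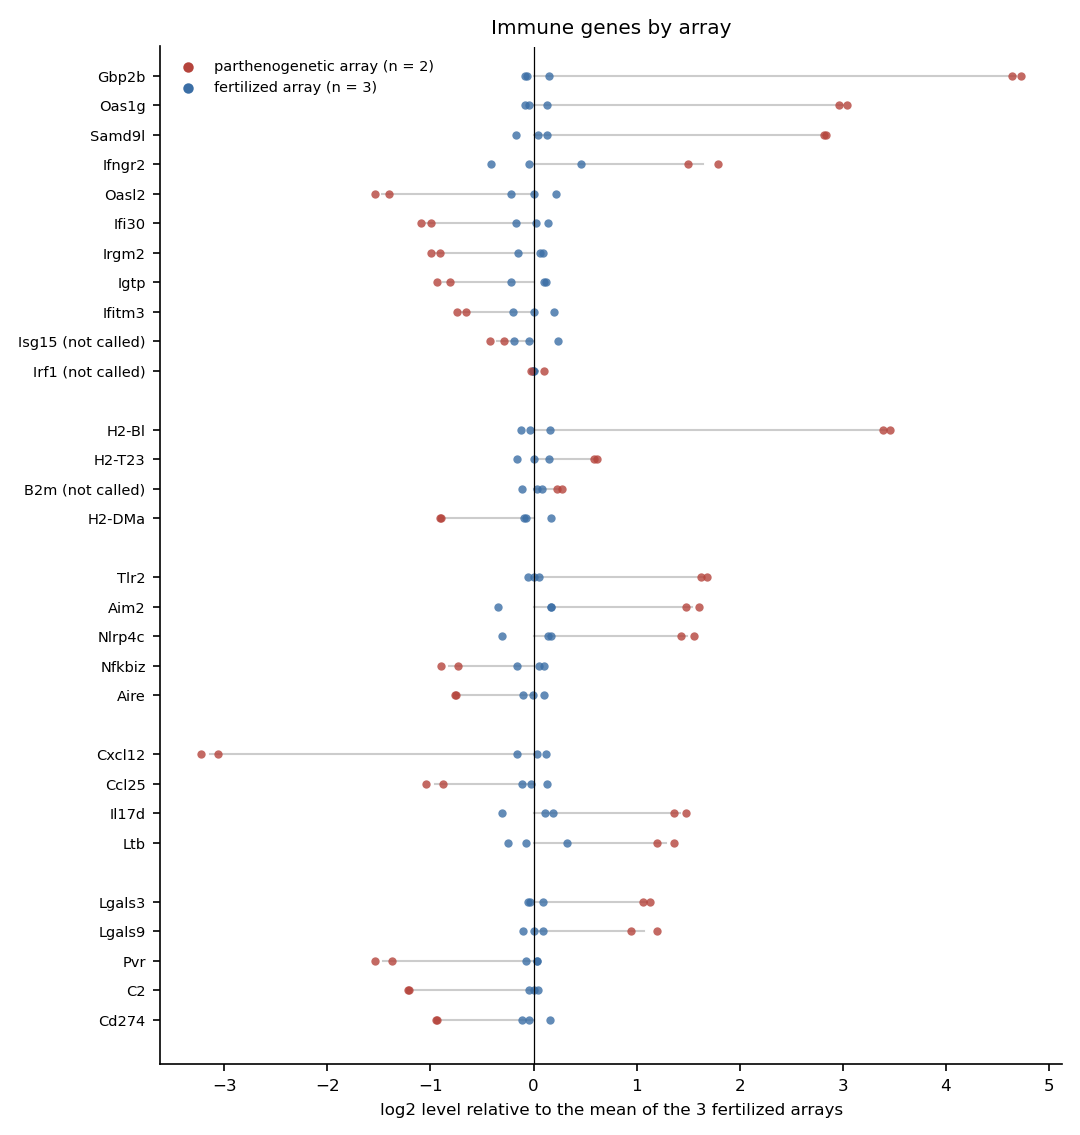
Each row is an immune gene and each point an array's log2 level relative to the mean of the 3 fertilized arrays (red, parthenogenetic; blue, fertilized). Blocks from the top hold interferon, MHC, innate sensing, cytokine and cell surface genes; the mean of the parthenogenetic points lies at 4.68 for Gbp2b and at -3.14 for Cxcl12. Levels of genes undetected in a group, such as Gbp2b in fertilized cells, lie below the detection limit.

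Egr1 and Fos, genes that are induced by ERK, were lower in parthenogenetic cells. Of 20 measured immediate early genes, 7 were lower and 2 higher, with a median of -0.21. Egr1, a zinc finger factor induced within minutes by ERK, fell from 11.44, 11.34 and 11.61 to 9.78 and 9.59. This was a 3.43-fold decrease (log2 -1.78 ± 0.13 SE, n = 2 and 3, limma adjusted p = 0.000292). Fos, the AP-1 subunit, fell 3.17-fold, from 9.85, 9.63 and 10.06 to 8.29 and 8.08, whereas Jun was undetected in parthenogenetic cells and differed by -0.30 (limma adjusted p = 0.0633). Neither the Egr1 nor the Fos arrays overlapped. Of 17 genes of FGF signalling and its feedback, 8 were lower and 3 higher, with a median of -0.25. Fgf17, a ligand, rose 1.87-fold and Ets2, an ERK-responsive factor, rose 1.80-fold. Flrt3, a membrane protein that binds FGF receptors, fell 1.72-fold. The feedback inhibitors Dusp6 and Spry4 were called 1.37-fold and 1.34-fold lower, and Etv5, a target gene, differed by -0.14 (limma adjusted p = 0.504). These smaller calls rested on the number of arrays. The median of the FGF list stayed negative, at -0.16 and -0.38 without the parthenogenetic arrays of passages 6 and 7. The excess of decreases among its called genes was not kept in those fits, which rest on a lone parthenogenetic array. Without the fertilized array of passage 6 the median was -0.22, with 2 increases and 3 decreases. The immediate early list held 2 decreases and no increase without either parthenogenetic array, and 3 decreases and no increase without the fertilized array of passage 6.

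Components of the LIF pathway were higher in 6 and lower in 1 of 17 members, with a median difference of 0.00 on the log2 scale. Without either parthenogenetic array 3 were called higher. Socs2, an inhibitor of cytokine receptors, rose 1.66-fold and Ccnd3, a cyclin of the G1 phase, 1.68-fold, from 12.62, 12.62 and 12.63 to 13.37 and 13.38. Il6st, the shared receptor subunit gp130, was called 1.42-fold higher, a call lost without either parthenogenetic array or the fertilized array of passage 6. Lifr had 6.84 and 6.98 against 6.73, 6.78 and 6.49 (log2 0.24, limma adjusted p = 0.192). Socs3, the feedback inhibitor and STAT3 target, was called 1.26-fold lower (limma adjusted p = 0.0389) and lost that call when any array other than the fertilized one of passage 8 was left out.

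Of 24 measured Wnt genes, 7 were higher and 4 lower, with a median of 0.08. Without the parthenogenetic array of passage 6 the list held 4 increases and 3 decreases, and without that of passage 7 it held 4 and 2. Among ligands, Wnt7b was called 1.76-fold higher, a call lost without the parthenogenetic array of passage 7. Among inhibitors, Sfrp1, a secreted Wnt antagonist, rose 1.82-fold, and Notum, an enzyme that inactivates Wnt proteins, had 9.31 and 9.30 against 6.67, 6.55 and 6.48. Tcf7l2, a transcription factor of the pathway, rose 1.83-fold. Lrp6, the co-receptor, was undetected in parthenogenetic cells and at least 2.53-fold lower. Axin2, a feedback inhibitor and common reporter of the pathway, fell 2.08-fold from 7.84, 7.86 and 7.73 to 6.75 and 6.76, while Sp5, another target, was undetected in fertilized cells and was not called (limma adjusted p = 0.0605).

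Of 21 Nodal and TGF-beta genes, 8 were lower and 5 higher. Inhbb, which encodes the subunit of activin B, rose 3.87-fold from 7.29, 7.32 and 7.60 to 9.34 and 9.37 (limma adjusted p = 0.000244). Lefty2, a Nodal antagonist, rose 2.36-fold, while its paralogue Lefty1 differed by -0.11 (limma adjusted p = 0.54) and Nodal itself by 0.07 (limma adjusted p = 0.735). Tgif2, a SMAD corepressor, fell 1.62-fold. The nuclear partner Foxh1 was called 1.63-fold lower by its brighter probe and not by the other, a call lost without either parthenogenetic array or the fertilized array of passage 6. The median of the list was -0.14 with all 5 arrays, and -0.11 and -0.10 without the parthenogenetic arrays of passages 6 and 7. In those fits, which rest on a lone parthenogenetic array, the excess of decreases among called genes was not kept. Without the fertilized array of passage 6 the median was -0.14, with 3 increases and 2 decreases. Of 17 BMP genes, 6 were higher and 3 lower, with a median of 0.25. The ligand Bmp4 was called 1.67-fold higher and the targets Id2 and Id1 1.80-fold and 1.43-fold higher, whereas the ligand Bmp7 fell 1.89-fold. Of these, Bmp7 alone was called in every fit that left out an array: Bmp4 was lost without the parthenogenetic array of passage 7, Id2 without that of passage 6, and Id1 without either or the fertilized array of passage 6.

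Of 21 Notch genes 7 were lower and 3 higher. The receptor gene Notch4 rose 2.77-fold, from 8.96, 9.40 and 9.18 to 10.63 and 10.68, and Rfng, which glycosylates Notch receptors, was at least 1.56-fold higher. Hes6, a bHLH factor that opposes Hes1, fell 2.31-fold, and the ligand Dll1 was called 1.61-fold lower, which was lost without either parthenogenetic array. Hes1 differed by 0.04. The median of the Notch list was -0.08 with all 5 arrays, and -0.08 and -0.02 without the parthenogenetic arrays of passages 6 and 7. Those fits rest on a lone parthenogenetic array and did not keep the excess of decreases among called genes. Without the fertilized array of passage 6 the median was -0.02, with 2 increases and 3 decreases. Of 15 Hippo genes 5 were lower and 1 higher, and none was called without either parthenogenetic array. None of the 4 measured hedgehog genes was called by limma, and their log2 differences ran from 0.07 to 0.37.

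In the insulin-like growth factor system, 5 of 24 genes were higher and 5 lower. The ligand Igf2, an imprinted gene expressed from the paternal allele, fell 3.24-fold, from 13.01, 12.91 and 12.92 to 11.21 and 11.29, and stayed well detected in parthenogenetic cells. Igfbp7 had 9.77 and 9.54 against 7.35, 7.61 and 7.51. Igfbp5, another binding protein, was detected on 1 of 3 fertilized arrays and differed by 2.04, while Igfbp2 and Igfbp4 fell by 0.70 and 0.68 on the log2 scale. Pik3ip1, an inhibitor of PI3 kinase, fell 1.87-fold. Among regulators of small GTPases, 3 of 23 were higher and 5 lower, or 34.8% called beside 29.9% of all autosomal genes. Rasa1, a GTPase-activating protein of Ras, rose 1.85-fold and Rab25, a GTPase of epithelial vesicle transport, fell 2.02-fold. Of 17 axon guidance genes 3 were higher and 3 lower, or 35.3% called. The receptor gene Robo1 rose 1.92-fold and Epha1 fell 1.61-fold, although the second probe of Epha1 was not called. Without either parthenogenetic array the small GTPase list held 2 increases and 2 decreases, and the axon guidance list 1 and 2. Of 7 retinoic acid genes 2 were higher and 2 lower, and Meis1, a homeobox target, fell 1.59-fold.

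**Figure D5:**
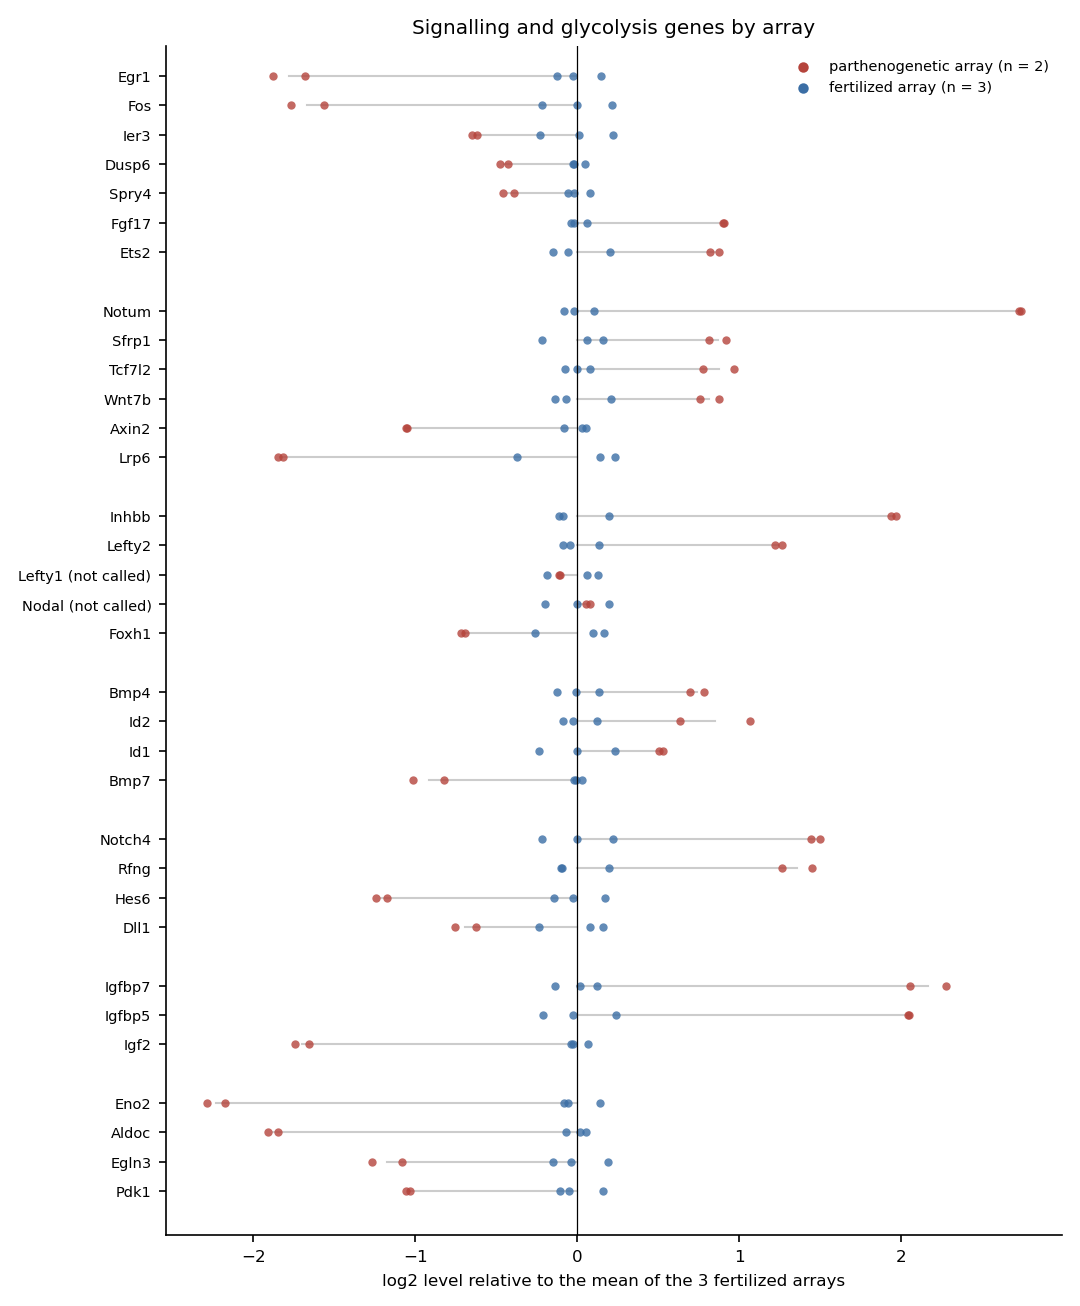
Each row is a gene and each point an array's log2 level relative to the mean of the 3 fertilized arrays (red, parthenogenetic; blue, fertilized). Blocks from the top hold ERK, Wnt, Nodal, BMP, Notch, IGF and glycolysis genes; the mean of the parthenogenetic points lies at -1.78 for Egr1, -1.66 for Fos, 2.73 for Notum, 1.95 for Inhbb and near 0 for Lefty1 and Nodal.

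Glycolytic and hypoxia-inducible genes were mostly lower. Of 28 measured autosomal members, 16 were lower and none higher (limma, adjusted), with a median of -0.51. Eno2, an enolase, had 8.12 and 8.01 in parthenogenetic and 10.21, 10.43 and 10.24 in fertilized cells and fell 4.69-fold (limma adjusted p = 0.000122). Aldoc, an aldolase, fell 3.67-fold, Egln3, the oxygen-sensing prolyl hydroxylase PHD3, 2.26-fold, and Pdk1, which keeps pyruvate out of the mitochondria, 2.06-fold. Ldha, the lactate dehydrogenase subunit, fell by 0.50 on the log2 scale and Slc2a1, a glucose transporter, by 0.41. Gapdh differed by -0.18, Hk2 by 0.04, Vegfa by 0.36 and Hif1a, the hypoxia factor itself, by 0.22, and none of these was called. The list held 8 and 9 decreases without the parthenogenetic arrays of passages 6 and 7 and 13, 16 and 15 without the fertilized arrays of passages 6, 7 and 8. In the last of these fits 2 members were called higher, as with the replicate block, and 1 was called higher with no background correction, in the deposited log2 table and with an offset of 50, among other settings.

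The promoter of Aldoc is shown as an example of these genes (chr11:78322823-78323122, plus strand, GRCm38.p6, RefSeq). Capitals mark ACGTG and GCGTG, the core bound by hypoxia-inducible factors, found on either strand.
Aldoc: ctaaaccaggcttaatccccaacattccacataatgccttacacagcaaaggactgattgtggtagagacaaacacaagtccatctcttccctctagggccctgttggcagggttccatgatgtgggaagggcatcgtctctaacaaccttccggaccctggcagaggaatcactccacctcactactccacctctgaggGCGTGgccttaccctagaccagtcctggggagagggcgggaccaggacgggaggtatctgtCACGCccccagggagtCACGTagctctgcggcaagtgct
The window holds 3 matches. The motif is short, and 14380 of all 32851 windows (43.8%) hold it. It was found in 19 of 26 windows of the list's lower genes (73.1%) and in 10 of 14 windows of its genes not called (71.4%).

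Stress and redox genes moved less uniformly. Of 30 genes of the integrated stress and unfolded protein responses, 9 were higher and 1 lower, with a median of 0.09. This was 33.3% called beside 29.9% of all autosomal genes. Slc6a9, a glycine transporter, rose 2.07-fold from 8.57, 8.75 and 8.64 to 9.77 and 9.64. Chac1, which degrades glutathione, rose 2.00-fold and Trib3, a pseudokinase induced by Atf4, 1.71-fold. The list held 4 and 6 increases without the parthenogenetic arrays of passages 6 and 7. Atf4 itself differed by 0.27 and Ddit3 by 0.07, and neither was called. Of 35 glutathione and redox genes, 12 were higher and 6 lower, and 5 or 6 were higher and none lower (limma) without a parthenogenetic array. Gstp2 and Gsta3, glutathione transferases, rose 2.69-fold and 2.49-fold, and Gpx1, the main peroxidase, rose 1.75-fold from 14.02, 14.11 and 14.13 to 14.83 and 14.96. Gstp1 and Gstp2 are near-identical in sequence, and their signals may not be separable. Nfe2l2, the master regulator of the antioxidant response, fell by 0.59 on the log2 scale. Of 23 p53 targets 7 were lower and 3 higher: Ak1, adenylate kinase, rose 2.37-fold, and Pmaip1 and Gadd45g were called 1.73-fold and 1.65-fold lower. Of 22 apoptosis genes 7 were lower and 4 higher. Without the parthenogenetic array of passage 6 the p53 list held 2 increases and no decrease and the apoptosis list no increase and 1 decrease. Without that of passage 7 they held 1 and 2 increases and no decrease.

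Cell cycle genes were higher in 5 and lower in 3 of the 34 measured, or 23.5% called beside 29.9% of all autosomal genes. Beside E2f2, Cdkn1c, an imprinted kinase inhibitor expressed from the maternal allele, was called 1.64-fold higher, a call lost without the parthenogenetic array of passage 6, while Mcm3, Cdk1 and Rb1 differed by 0.04, -0.11 and 0.07 and were not called. The list held 3 increases and no decrease without that array, and 3 and 1 without the passage 7 array. Of 17 DNA methylation genes, 5 were lower and 2 higher. Dnmt3l, the cofactor of the de novo methyltransferases, was called 1.40-fold lower at 14.70 and 14.73 against 15.07, 15.28 and 15.26, and Dnmt1, the maintenance enzyme, differed by 0.40 and was not called. The Dnmt3l call was lost without either parthenogenetic array, and the list then held at most 1 call. Of 15 cholesterol synthesis genes, 4 were lower and 1 higher, or 33.3% called beside 29.9% of all autosomal genes. Of 32 matrix and integrin genes, 7 were higher and 5 lower, or 37.5% called. Without the parthenogenetic arrays of passages 6 and 7, cholesterol decreases numbered 2 and 1, and matrix genes were called higher in 2 and 2 and lower in 2 and 3.

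Imprinted genes are the context of the comparison. Of 14 measured paternally expressed genes, 8 were lower and 3 higher, with a median of -0.66, or -0.59 with undetected groups at their bound. Nnat, Peg3 and Peg10 were undetected in parthenogenetic cells and passed the filter only through fertilized cells. Of the 11 genes detected on all 5 arrays, 5 were lower and 3 higher, with a median of -0.12. The increases were Sfmbt2 (log2 1.65), Ndn (log2 0.95) and Mkrn3 (log2 0.52). Of 18 measured maternally expressed genes, 8 were higher and none lower by limma, with a median of 0.35, and 5 were higher without either parthenogenetic array. H13, a signal peptide peptidase, rose 2.56-fold from 8.58, 8.58 and 8.80 to 10.03 and 9.99, Pon2, a lactonase, rose 2.00-fold, and Cobl, an actin nucleator, 1.64-fold. Grb10, Phlda2 and Gnas differed by 0.13, 0.02 and -0.22 and were not called.

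By correlation across kept probes, passages of a group (r = 0.984 to 0.996) differed less than the groups (0.957 to 0.963). The quartiles of the group difference over all autosomal genes were -0.28 and 0.24. Among 6834 autosomal genes detected on all 5 arrays, the gap between the parthenogenetic arrays had a median of 0.08 on the log2 scale and exceeded 1 for 1 gene. The range over the 3 fertilized arrays had a median of 0.25 and exceeded 1 for 80 genes, of which 5 were called between the groups. In 62 of these 80 genes the array farthest from the median of its group was that of passage 8, and in 58 it was the lowest. They included Ndufa3, a subunit of respiratory complex I (12.31, 12.15 and 10.58), Cox7a1, a subunit of cytochrome oxidase (10.55, 10.44 and 8.99), Dpm3 of mannose phosphate synthesis (11.01, 11.09 and 9.56) and the histone gene H2ac21 (10.90, 11.31 and 9.61). These 4 genes were chosen after their values were seen, and none of them was called between the groups. Without the passage 8 array 2499 autosomal genes were called, 1135 higher and 1364 lower.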

How the data were processed

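RNA of 2 parthenogenetic and 3 fertilized samples was measured on 1 single-colour Illumina BeadChip each. Per the labels, 0.55 ug of total RNA was amplified to biotin-labelled cRNA; the arrays were read with BeadStudio 3.1.3, per the submitters' processing notes. The authors deposited an intensity per probe and array that was not normalized and, beside it, a detection p-value in steps of 1/798. Signal intensities had medians of 126.8 to 153 per array, and 41.34% to 43.48% of probes were detected. The number of arrays limits the precision. The authors also deposited a table of log2 values for 12891 probes, which served as an alternative.

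Intensities were background-corrected from the detection p-values, quantile normalized and log2-transformed after an offset of 16 (neqc in limma 3.58.1, R 4.3.3), over the 5 arrays. The offset compresses differences of dim genes. Gene names came from the platform annotation, which names 12145 probes with 1 gene each and none with several; 12141 matched RefSeq genes of GRCm38.p6, which gave the chromosomes and promoters. Names cover only probes of the deposited log2 table. A gene was represented by its kept probe with the highest mean; 2076 genes had several kept probes, and the probes of 4 genes were called in opposite directions. Groups were compared with limma's two-sided moderated test (lmFit, eBayes; 3 residual and 3.72 prior degrees of freedom) with Benjamini-Hochberg adjustment over all kept probes and a threshold of 0.05. The procedure was tested on simulated data. The 40 gene lists and the comparison were chosen with earlier results of these data known. By rule the text names, among called genes without overlap of the arrays, the 15 that rose most and the 15 that fell most, then up to 6 called members of each cell state, signalling and immune list, up to 4 of each other list, and a set of genes taken whatever their values; other list members stand as examples, chosen after their values were seen. Replicate numbers follow the passage, and the groups were fitted without pairing. Residual correlations between arrays of the same number were -0.0919 and 0.0759. The residuals of 2 parthenogenetic arrays mirror each other, so these values cannot decide whether the replicates are paired. Alternatives covered background, normalization, offset, filters, probe choice, variance model, arrays left out, the deposited table and the fit of all 8 arrays.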

Additional observations from a re-analysis of the deposited data

Results flagged for a closer look

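The comparison leaves out 752 kept probes that had no gene name. Of these, 188 were called higher in parthenogenetic cells and 118 lower (limma, adjusted p under 0.05). The background is 3559 probes called in either direction among all 11496 kept probes, the unnamed ones included. Of 269 measured X-linked genes, 174 were called higher. The unnamed probes were not assigned to chromosomes, so X-linked ones among them could not be set apart, and their calls are not a result for autosomal genes. The unnamed probe with the largest increase, ILMN_2960233, had normalized log2 signals of 9.26 and 9.28 in parthenogenetic and of 5.10, 4.93 and 5.29 in fertilized cells. The unnamed probe with the largest decrease, ILMN_2954474, had 6.63 and 6.66 against 9.21, 9.10 and 9.44. The groups did not overlap for either probe, and both were chosen after their values were seen. The genes behind these probes are not analysed here.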

How the results depend on the processing

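No alternative that was run reversed the direction of a called named gene. The 2266 autosomal calls became 3106 when the androgenetic arrays were fitted too, and ranged from 2006 to 2468 under the other alternatives that kept the 5 arrays. With 1 array left out they ranged from 815 to 2499, those higher from 403 to 1203 and those lower from 412 to 1364, and the 2-fold count from 357 to 389. A lone parthenogenetic array is assumed to vary like the fertilized ones. The 368 genes of at least 2-fold became 184 with no background correction, 203 in the deposited log2 table, 231 with detection required on all 5 arrays and 258 with an offset of 50. Replicate numbers were not used to pair the groups. With the replicate as a block, 2239 genes were called, 1921 of them shared with the fit without it. With that block 9 named genes lost their call and Sp5 gained a call. Named genes lost calls most often without the parthenogenetic array of passage 6 (64) or 7 (61) and without the fertilized array of passage 6 (27), and 10 lost them with no filter and 7 with median scaling. The call of Smad6 and that of Ehmt1 were lost when probes of a gene were averaged. Slide could not be used as a block because the labels give none. Genes undetected on every array of a group have lower bounds only: 109 called-higher genes were undetected on every fertilized array and 111 called-lower genes on both parthenogenetic arrays.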

Other observations

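Genes outside the lists also differed, and those given here were chosen after their values were seen. Prf1, the pore-forming protein of cytotoxic lymphocytes, had 12.40 and 12.24 in parthenogenetic and 10.51, 11.09 and 9.70 in fertilized cells and rose 3.69-fold (limma adjusted p = 0.00944). Osm, a cytokine of the LIF family, rose 2.91-fold from 7.64, 8.04 and 7.56 to 9.26 and 9.32, and Ngfr, the low-affinity neurotrophin receptor, rose 2.73-fold. Bdnf, a neurotrophin, was undetected in fertilized cells and at least 1.33-fold higher, and Msln, a mesothelial surface protein, at least 2.32-fold higher.

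The following genes, also picked by their values, were lower. Mb, the oxygen-binding myoglobin, fell 2.31-fold from 8.02, 8.05 and 7.83 to 6.75 and 6.77, and Pdlim3, a protein of the muscle Z disc, fell 2.55-fold. Cpt1b, the muscle form of the enzyme that admits fatty acids to mitochondria, was undetected in parthenogenetic cells and at least 2.38-fold lower. Pygl, a glycogen phosphorylase, fell 2.75-fold and Pgm1, which interconverts glucose phosphates, 2.95-fold, from 11.74, 11.66 and 12.03 to 10.43 and 10.07. Bcl6, a transcriptional repressor of lymphocytes, fell 3.58-fold from 8.34, 8.55 and 8.27 to 6.52 and 6.57.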
